A study of Rattus norvegicus with 34 samples.

Results

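The growth hormone, prolactin and IGF axis was followed in rat liver through 10 genes that were listed by symbol: the receptors Ghr and Prlr, the kinase Jak2, the transcription factors Stat5a and Stat5b, the secreted products Igf1, Igfals and Igfbp1, and the feedback inhibitors Cish and Socs2. They are represented by 16 probe sets, out of 17584 probe sets with a single gene symbol for 12461 genes, array control probe sets left out. Each gene was read from its probe set of highest mean log2 signal in the strain.

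Liver RNA was measured in 34 male rats of 2 inbred strains on Affymetrix Rat 230 2.0 arrays, with an array for each animal, in a study of how enzymes that metabolise foreign compounds change with age. The F344 rats, 4 at each age, were 6, 11, 18 or 24 months of age. They received no treatment and were kept at their supplier until 1 week before necropsy. The Brown Norway rats were housed individually and were 4, 12 or 24 months old. At each of these ages 3 rats were given toluene by gavage at 1 g/kg and killed 4 hours later, and another 3 were controls with no treatment. The controls were not gavaged according to their labels, so toluene, its vehicle and the handling cannot be told apart. Strain and housing differ together, so each strain was analysed by itself and only its differences between ages were set against those of the other.

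Growth hormone binds Ghr on hepatocytes and activates the kinase Jak2, which phosphorylates Stat5b and Stat5a; these enter the nucleus and switch on Igf1, Igfals, Cish and Socs2, and Cish and Socs2 in turn hold the receptor's signal in check. Prlr is a close relative of Ghr that works through the same kinase and STAT factors, and in rats it is known as a receptor that female livers hold at a higher level than male livers. Igf1 leaves the liver bound to binding proteins and to the acid-labile subunit made from Igfals, while Igfbp1, a binding protein that is repressed by insulin and raised in fasting and stress, limits the IGF that is free to act. In male rats the pulses of growth hormone also maintain male-specific liver genes such as Cyp2c11, and a more even supply in females maintains female-specific genes such as Cyp2c12.

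The promoters of 3 of these genes are shown because Cish is a classical Stat5 target, Prlr carried the largest difference with age among the 9 genes tested, and Igfbp1 was the other gene that passed a test. RefSeq windows of 300 bases (build GRCr8), running from 250 bases before to 50 bases after an annotated transcript start, were found for 9 of the 10 genes, 10 windows in all. Socs2 had no window in the table. Capitals mark TTCNNNGAA, the spaced palindrome bound by STAT5, and CAAAACA or its reverse complement, the core of the insulin response sequence of Igfbp1. Both motifs were searched on both strands, and they do not overlap each other in these windows. TTCNNNGAA was present in 8.87% and CAAAACA in 6.28% of all 33469 promoter windows of the same length. The sequences read 5′ to 3′ on the plus strand, which is the strand of all 3 genes: Cish at chr8:116850719-116851018, the windows of Prlr at chr2:60861515-60861814 and chr2:60909409-60909708, and Igfbp1 at chr14:86261027-86261326.
Cish: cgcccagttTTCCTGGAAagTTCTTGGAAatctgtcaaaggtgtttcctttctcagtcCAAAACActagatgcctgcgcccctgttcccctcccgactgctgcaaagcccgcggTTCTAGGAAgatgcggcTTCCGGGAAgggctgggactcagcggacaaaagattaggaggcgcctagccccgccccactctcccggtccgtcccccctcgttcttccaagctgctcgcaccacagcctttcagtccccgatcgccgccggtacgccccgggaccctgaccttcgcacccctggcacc
Prlr, first window: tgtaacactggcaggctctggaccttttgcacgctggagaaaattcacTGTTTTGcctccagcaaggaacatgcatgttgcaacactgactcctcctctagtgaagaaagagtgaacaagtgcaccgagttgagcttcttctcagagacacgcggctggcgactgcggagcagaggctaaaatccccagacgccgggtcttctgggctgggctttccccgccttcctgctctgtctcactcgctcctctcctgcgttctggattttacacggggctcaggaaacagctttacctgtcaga
Prlr, second window: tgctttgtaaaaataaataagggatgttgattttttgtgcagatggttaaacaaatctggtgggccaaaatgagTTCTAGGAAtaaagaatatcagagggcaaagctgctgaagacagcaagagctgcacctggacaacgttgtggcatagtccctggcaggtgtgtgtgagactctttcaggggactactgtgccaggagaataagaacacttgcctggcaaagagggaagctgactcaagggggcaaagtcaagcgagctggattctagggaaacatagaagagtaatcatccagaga
Igfbp1: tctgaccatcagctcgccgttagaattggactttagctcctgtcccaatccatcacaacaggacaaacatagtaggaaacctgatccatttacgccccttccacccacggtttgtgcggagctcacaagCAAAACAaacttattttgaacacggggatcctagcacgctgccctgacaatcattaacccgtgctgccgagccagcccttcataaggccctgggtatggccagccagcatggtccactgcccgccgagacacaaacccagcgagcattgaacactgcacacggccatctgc
The Cish window held 4 matches to TTCNNNGAA, whose first bases lie 241, 230, 136 and 119 bases before the start site, and 1 CAAAACA at 192 bases. The second Prlr window held 1 TTCNNNGAA at 176 bases, and the first held the reverse complement of CAAAACA at 202 bases. Igfbp1 had CAAAACA at 121 bases, and Igf1 had it at 67 bases before its start. None of the windows of Ghr, Jak2, Stat5a, Stat5b, Igf1, Igfals and Igfbp1 held the letters TTCNNNGAA. A match is a run of letters and does not show that a factor binds there.

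Signals are the deposited linear probe set intensities, in arbitrary units, and a level of 32 was used as a floor, under which values have no order. Median signals per array were 44.9 to 47.1 in F344 and 35.6 to 38.3 in Brown Norway rats. GAPDH is probed near both ends of its transcript, and the ratio of its 3′ signal to its 5′ signal, which rises as RNA degrades, was 1.31 to 7.33 in F344 and 0.774 to 0.944 in Brown Norway rats. It exceeded 2.5 on 5 F344 arrays, of which 2 came from 6, 2 from 11 and 1 from 18 months and none from 24 months. Hepatocyte markers, 5 of 5 on the array, summed to 33733 to 35315 in F344 rats of 24 months and 33310 to 34485 in those of 6 months. Of the markers of other cells, Cd68, Clec4f, S100a9, S100a8 and Cd8a were higher at 24 than at 6 months, each past the test described in the next paragraph. The 4 macrophage markers with a probe set, of 6 listed, summed to 1973 to 2531 at 24 months and 1223 to 1568 at 6 months, the 2 of 3 neutrophil markers to 189 to 371 at 24 months and 58.4 to 87.3 at 6 months. The 5 of 6 markers of T and B cells summed to 277 to 391 at 24 months and 104 to 157 at 6 months. Of these, S100a8, Cd3g and Cd8a were at the floor on every array of 6 months, and Cd3e on every array of either age. S100a8 and Cd8a were also at the floor on every array of 11 months. The differences of S100a8 and Cd8a are therefore on floored values, against a level that was not measured. In whole liver, more cells of a type and more RNA per cell cannot be told apart.

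Differences are log2 fold changes from limma with their 95% intervals, where limma borrows strength across genes to estimate the spread between animals. A gene passed at a Benjamini-Hochberg adjusted p under 0.05 over all genes tested in its strain, 9206 in F344 and 8584 in Brown Norway rats. Precision is limited by the small number of arrays in each group. Of the 10 genes, 9 passed the filter on low signals in each strain, and Jak2 passed in neither.

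The growth hormone receptor held its level with age in F344 rats within narrow limits. Ghr had signals of 2286, 2467, 2152 and 2573 at 24 months, against 2362, 2760, 2201 and 2229 at 6 months. The groups overlapped, and their means of 2369 ± 187 at 24 months and 2388 ± 258 at 6 months (SD, n = 4 each) differed by a log2 fold change of -0.01 (95% interval -0.25 to 0.24, adjusted p = 0.985, limma). That interval spans 0.839-fold to 1.18-fold. Ghr averaged 2135 ± 229 at 11 months and 2327 ± 227 at 18 months, and the F test over the 4 ages did not pass (adjusted p = 0.768).

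A second Ghr probe set, 1368924_at, behaved unevenly in F344 rats. Its signal was 149 to 361 where the GAPDH ratio exceeded 2.5 (5 arrays) and 552 to 910 on the other 11, with no overlap. The probe set used, 1373803_a_at, had 1856 to 2362 on those 5 arrays and 2152 to 2760 on the other 11. The second probe set's difference between 24 and 6 months, 0.49 on the log2 scale, did not pass (adjusted p = 0.745), and whether RNA integrity sets its level was not tested.

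In Brown Norway rats Ghr varied more between animals, from 625 to 2199 over the 18 arrays. Averaged over dosed and control rats, the difference between 24 and 4 months was -0.09 (95% interval -0.58 to 0.41), and no age comparison passed.

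The prolactin receptor rose in the ageing F344 liver. Prlr had signals of 806, 817, 761 and 1210 at 24 months, against 42.9, 55.4, 104 and 42.1 at 6 months. Every old rat lay above every young rat by a wide margin. The mean was 899 ± 209 at 24 months and 61.0 ± 29.0 at 6 months (SD, n = 4 each), a 15.5-fold difference (log2 fold change 3.96, SE 0.44, 95% interval 3.03 to 4.89, adjusted p = 3.86e-05, limma). Prlr was the 1 gene of the 9 tested that passed in this comparison, in which 7.40% of all genes passed and 4.43% passed as higher. At an unadjusted p under 0.05 the count was 4 of 9, where 20.4% of all genes lay under that level.

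Prlr was higher than at 6 months by 18 months of age, and a difference at 11 months did not pass. The signals were 42.9, 55.4, 104 and 42.1 at 6 months and 277, 80.4, 42.0 and 125 at 11 months. They were 203, 309, 470 and 290 at 18 months and 806, 817, 761 and 1210 at 24 months. The rats of 11 months spanned from the level of the youngest group to within the range of the rats of 18 months. Their highest rat, at 277, had the highest GAPDH ratio of the F344 arrays, 7.33. On the other Prlr probe sets that rat read 248 (1370384_a_at) and 30.1, at the floor (1370789_a_at). All rats of 18 months lay above all rats of 6 months. At 18 months Prlr was 5.36-fold higher than at 6 months (log2 fold change 2.42, 95% interval 1.49 to 3.35, adjusted p = 0.0143, limma), in a comparison where 1.08% of genes passed; 2 of the 9 genes had an unadjusted p under 0.05, against 11.8% of all genes. That call was lost without the low-signal filter (adjusted p = 0.0566), without replicate 3 of 18 months (0.0699), and without replicate 1 (0.0504) or replicate 2 (0.0515) of 6 months. At 24 months it was 8.48-fold higher than at 11 months (log2 fold change 3.08, adjusted p = 6.33e-04), where 4.92% of genes passed and 20.2% had an unadjusted p under 0.05. Neighbouring ages did not pass: 24 against 18 months gave 1.54 (adjusted p = 0.0984), 18 against 11 months 1.55 (adjusted p = 0.151) and 11 against 6 months 0.87 (95% interval -0.05 to 1.80, adjusted p = 1). The 4 macrophage markers summed to 1381 to 2352 at 11 and 1789 to 2590 at 18 months. The 4 of 5 cholangiocyte markers with a probe set summed to 240 to 285 at 24 months and 101 to 183 at 6 months, with Krt7 and Spp1 at the floor on every array of both ages. The part of other cells in the Prlr signal was not tested. Without the 5 arrays of high GAPDH ratio the 24 to 6 month difference was 4.19 (adjusted p = 3.98e-04).

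**Figure D1:**
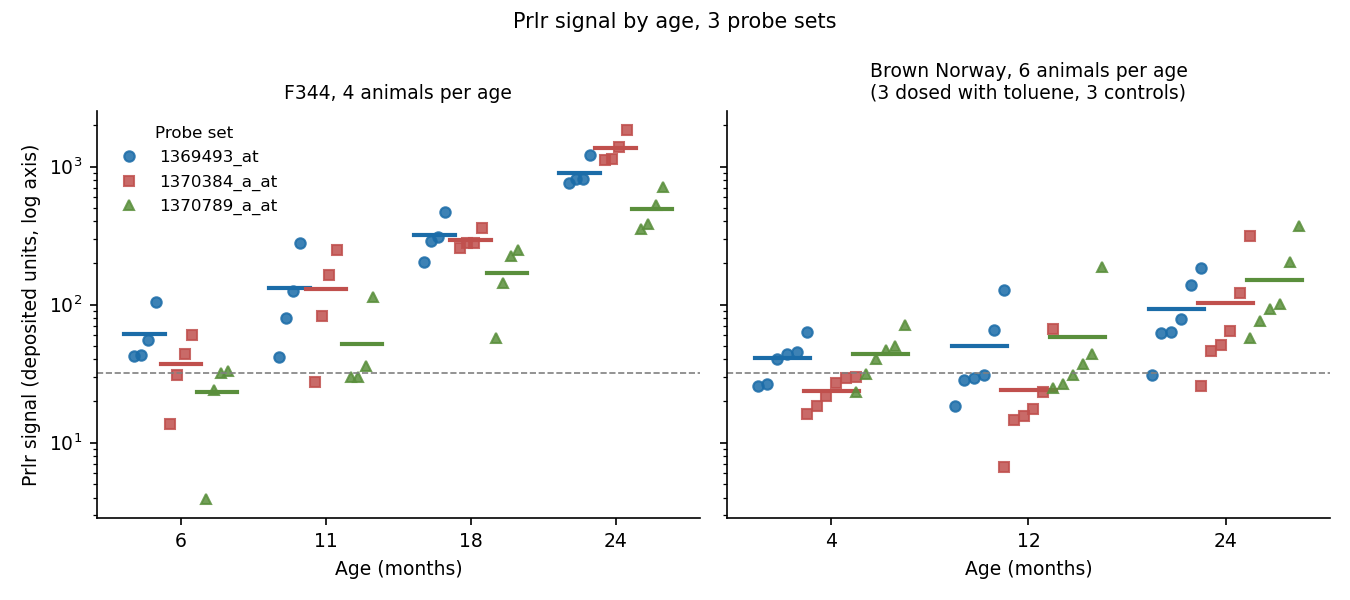
Signal of the 3 Prlr probe sets (log axis) in each rat by age, with F344 rats on the left (4 per age) and Brown Norway rats on the right (6 per age, dosed and control together). Points are animals, bars are group means and the dashed line is the floor of 32; in F344 all 3 probe sets are highest at 24 months, and in Brown Norway rats the ages overlap.

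All 3 Prlr probe sets showed the rise in F344 rats. Probe set 1370384_a_at read 1121, 1382, 1130 and 1840 at 24 months and 13.7, 44.0, 60.0 and 30.8 at 6 months, a log2 fold change of 5.05 (adjusted p = 5.36e-06). Probe set 1370789_a_at read 382, 707, 352 and 527 at 24 months, and 3.88, 33.0, 31.7 and 24.1 at 6 months. The first had 2 and the second 3 of the 4 rats of 6 months at the floor, and all rats of 24 months were far above it. The difference of 1370789_a_at was 3.87 (adjusted p = 7.21e-05). Between 24 and 18 months 1370384_a_at passed (2.20, adjusted p = 0.0227), while 1370789_a_at did not (1.69, adjusted p = 0.0769).

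In Brown Norway rats Prlr was read best by 1370789_a_at, which was above the floor on 13 of 18 arrays. The dosed rats had 50.0, 40.1 and 31.3 at 4 months, 30.7, 26.5 and 188 at 12 months and 204, 101 and 92.5 at 24 months. The controls had 70.8, 46.7 and 23.2 at 4 months, 24.8, 43.9 and 37.0 at 12 months and 57.2, 75.4 and 368 at 24 months. Between 24 and 4 months the dosed groups did not overlap and the control groups did, with 1 control of 24 months far above the other 2. The mean of 24 months, dosed and control together, was 150 ± 118, and that of 4 months 43.7 ± 16.5 (SD, n = 6 each). Their log2 fold change of 1.47 (SE 0.48, 95% interval 0.45 to 2.48) did not pass (adjusted p = 0.198, limma). It passed with array quality weights (1.65, adjusted p = 0.033). The other probe sets gave 0.93 (adjusted p = 0.461) and 1.23 (adjusted p = 0.238).

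The F344 difference in Prlr between 24 and 6 months exceeded the Brown Norway difference between 24 and 4 months by 2.49 on the log2 scale (95% interval 1.11 to 3.87), which did not pass over the 8317 genes tested in both strains (adjusted p = 0.107, 0.721% of genes passing). That value sets different probe sets against each other. To use the same probe set in both strains, every probe set was tested, and the adjustment ran over the 10534 tested in both. The excess was then 3.81 for 1370384_a_at (adjusted p = 0.00886), 3.03 for 1369493_at (adjusted p = 0.0393) and 2.41 for 1370789_a_at (adjusted p = 0.15). The call of a strain difference therefore depended on the probe set. None of these sizes is exact, because young rats lay at the floor: 1370384_a_at was at the floor in all 6 Brown Norway rats of 4 months and 2 of 4 F344 rats of 6 months, 1370789_a_at in 2 of those 6 and 3 of those 4, and 1369493_at in 2 of those 6 Brown Norway rats. In Brown Norway rats 1370384_a_at met the filter of 3 arrays only through the rats of 24 months. Its Brown Norway difference of 1.23 is thus a lower bound, and its excess and adjusted p do not decide a strain difference. The youngest groups also differed in age, 6 months in F344 and 4 months in Brown Norway rats.

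The kinase Jak2 was near the limit of the array. Its probe set lay at 0.657 to 39.7 in F344 rats (median 21.5) and at 14.5 to 34.3 in Brown Norway rats (median 21.1), above the floor on 1 of 16 and 1 of 18 arrays. It was not tested, and a change in this range could not have been seen.

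The 2 Stat5 genes were low and showed a shallow difference with age in F344 rats that did not pass. Stat5b, the main growth hormone-responsive STAT of liver, had 30.4, 29.0, 39.8 and 44.2 at 24 months, against 50.7, 51.8, 42.0 and 63.8 at 6 months. The groups overlapped by a single rat of each age, and 2 of the 4 old rats were at the floor. Its log2 fold change was -0.49 (95% interval -0.89 to -0.10, adjusted p = 0.135, limma). It passed with array quality weights (-0.55, adjusted p = 0.022) and without the 5 arrays of high GAPDH ratio (-0.65, adjusted p = 0.0394). With the ratio as a covariate it was -0.57 (adjusted p = 0.0588). Stat5a, which shares much of its sequence with Stat5b, had 45.3, 66.2, 59.9 and 48.5 at 24 months and 64.9, 59.6, 77.4 and 67.8 at 6 months. These groups overlapped too, with a log2 fold change of -0.30 (95% interval -0.58 to -0.03, adjusted p = 0.196).

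Stat5b had, in Brown Norway rats, 56.9, 58.8 and 61.9 at 24 months and 64.7, 95.3 and 75.1 at 4 months in dosed rats. The controls had 51.9, 101 and 42.8 at 24 months, against 71.3, 149 and 61.2 at 4 months. Dosed groups stood apart and control groups overlapped. The averaged difference of -0.45 (95% interval -0.92 to 0.02) did not pass (adjusted p = 0.494). Stat5a ranged from 27.5 to 61.9 over the 18 arrays, with an averaged difference of -0.07 (adjusted p = 0.924).

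Igf1, the hormone that the liver makes in answer to growth hormone, was level over the ages in F344 rats. It had 5268, 5250, 4192 and 5219 at 24 months, against 5379, 5348, 4988 and 5030 at 6 months. Of the old rats 3 lay within the range of the young and 1 lay below it. The means were 4982 ± 527 at 24 months and 5186 ± 206 at 6 months (SD, n = 4 each), with a log2 fold change of -0.06 (95% interval -0.29 to 0.16, adjusted p = 0.811, limma). The interval spans 0.817-fold to 1.12-fold in the signal of this probe set. How that signal scales with Igf1 mRNA at this level was not tested. The other Igf1 probe sets had 1260 ± 126 (1382599_at) and 4539 ± 138 (1388469_at) at 24 months. At 6 months they had 1284 ± 239 and 4602 ± 165. Igfals, which encodes the acid-labile subunit, had 594, 629, 887 and 611 at 24 months and 746, 590, 679 and 869 at 6 months, also overlapping. Its difference was -0.09 (adjusted p = 0.84), with a fold interval of 0.724 to 1.22.

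The binding protein Igfbp1 rose in F344 rats between 11 and 24 months. Its signals were 52.5, 66.4, 102 and 110 at 6 months and 58.1, 85.4, 38.8 and 70.2 at 11 months. They were 85.1, 530, 145 and 190 at 18 months and 160, 206, 183 and 246 at 24 months. All rats of 24 months lay above all rats of 11 and 6 months, while the rats of 18 months were widely spread. The mean of 24 months, 199 ± 36.9, stood against 63.1 ± 19.7 at 11 months (SD, n = 4 each), a 3.24-fold difference that passed (log2 fold change 1.69, SE 0.41, 95% interval 0.82 to 2.57, adjusted p = 0.0272, limma). Igfbp1 and Prlr were the 2 of 9 genes that passed there, where 4.92% of all genes passed. An unadjusted p under 0.05 was found for 4 of the 9, against 20.2% of all genes. Against 6 months (82.8 ± 27.8) the difference was 2.48-fold and did not pass (log2 fold change 1.31, 95% interval 0.43 to 2.19, adjusted p = 0.0686). The F test over the 4 ages passed for Igfbp1 (adjusted p = 0.0286) and Prlr (adjusted p = 1.63e-04), 2 of 9 genes where 6.01% of all genes passed.

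The Igfbp1 call was fragile. It was lost without the 5 arrays of high GAPDH ratio (adjusted p = 0.0883), with the ratio as a covariate (0.0507), with a lower floor of 8 (0.0522), with a floor 4 times as high as the one used (0.254), and with no filter on low signals (0.0747). It was also lost without replicate 1 (0.0555), 2 (0.0594) or 4 (0.0882) of 24 months and replicate 1 (0.054) or 3 (0.0856) of 11 months. The log2 fold change stayed positive, at 0.62 to 1.91, over these and the other alternatives. Insulin, feeding state and time of killing are not given in the sources used here.

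**Figure D2:**
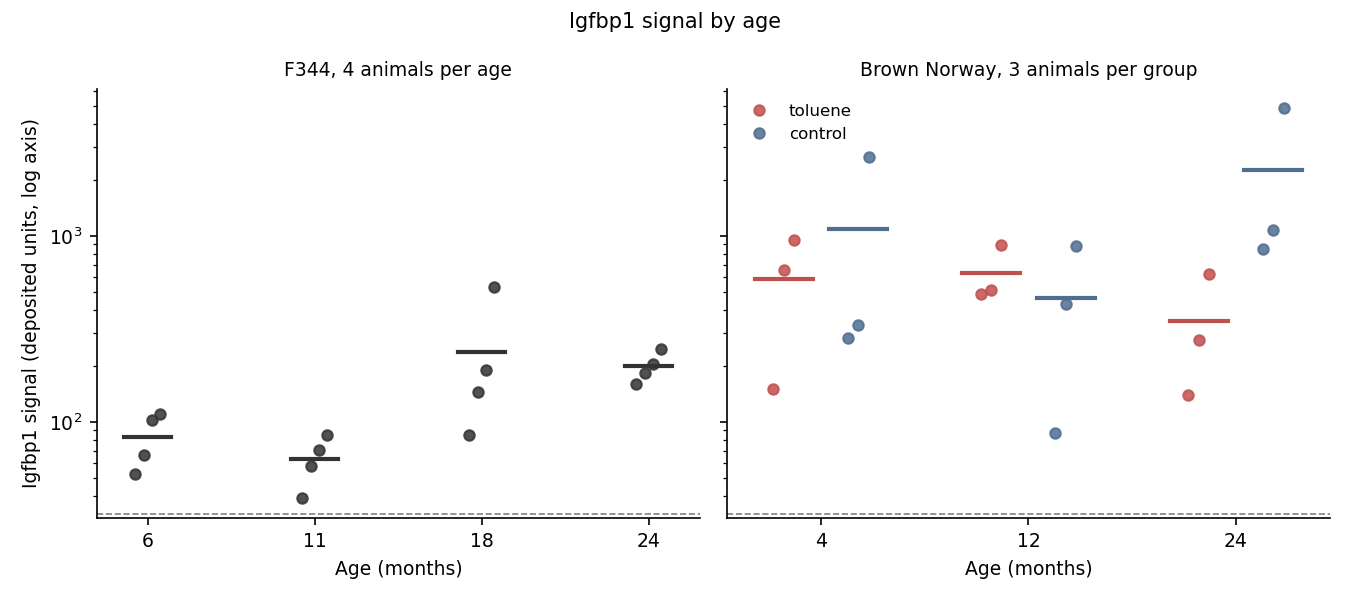
Igfbp1 signal (log axis) in each rat by age in F344 (4 per age) and in Brown Norway rats, where toluene-dosed rats are red and stand left of controls in blue (3 each per age). Bars are means and the dashed line is the floor of 32; F344 rats of 24 months lie at 160 to 246, above all rats of 6 and 11 months, and Brown Norway rats are spread from 86.9 to 4845.

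Igfbp1 was the most variable of the 9 tested genes in Brown Norway rats, from 86.9 to 4845 over the 18 arrays, a 55.7-fold range. The dosed rats had 277, 140 and 624 at 24 months, against 150, 955 and 655 at 4 months. The controls had 1082, 4845 and 852 at 24 months, against 283, 2642 and 333 at 4 months. The ages overlapped in both arms. The averaged difference between 24 and 4 months was 0.37 (adjusted p = 0.918), and it was -0.03 without replicate 1 of the dosed rats of 4 months.

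The feedback inhibitors Cish and Socs2, both STAT5 targets, were low in F344 rats. Cish was above the floor on 14 of 16 arrays, with 69.8, 55.0, 69.0 and 45.1 at 24 months, against 37.8, 19.6, 58.8 and 185 at 6 months. The old rats lay within the range of the young, and the difference was -0.03 with a wide interval of -1.08 to 1.01 (adjusted p = 0.986). Socs2 was above the floor on 4 of 16 arrays, with none at 24 months, and its difference was -0.32 (adjusted p = 0.568).

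In Brown Norway rats Socs2 had lower signals in older animals, without passing the test. At 4 months it had 31.3, 75.7 and 78.1 in dosed rats and 64.5, 128.3 and 62.0 in controls. At 12 months it had 24.1, 2.13 and 26.9 in dosed rats and 29.9, 19.8 and 29.8 in controls. At 24 months it had 2.21, 22.3 and 3.02 in dosed rats and 30.6, 51.6 and 46.5 in controls. All 6 rats of 12 months and 4 of 6 rats of 24 months were at the floor, against 1 of 6 at 4 months. The averaged log2 fold change was -0.88 between 24 and 4 months (95% interval -1.34 to -0.42, adjusted p = 0.0724, limma) and -1.08 between 12 and 4 months (adjusted p = 0.167), both on floored values. Socs2 met the filter of 3 arrays only through the rats of 4 months, 5 of which were above the floor, against 0 at 12 and 2 at 24 months. Both differences passed with array quality weights (adjusted p = 0.0155 and 0.0234) and without replicate 1 of the dosed rats of 4 months (0.00861 and 0.0172). That rat, at 31.3, was the only rat of 4 months at the floor, so leaving it out could only widen both differences. Because the filter was met only through the rats of 4 months, these calls do not decide a difference with age. Cish lay at 10.6 to 67.8 and was above the floor on 7 of 18 Brown Norway arrays.

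**Figure D3:**
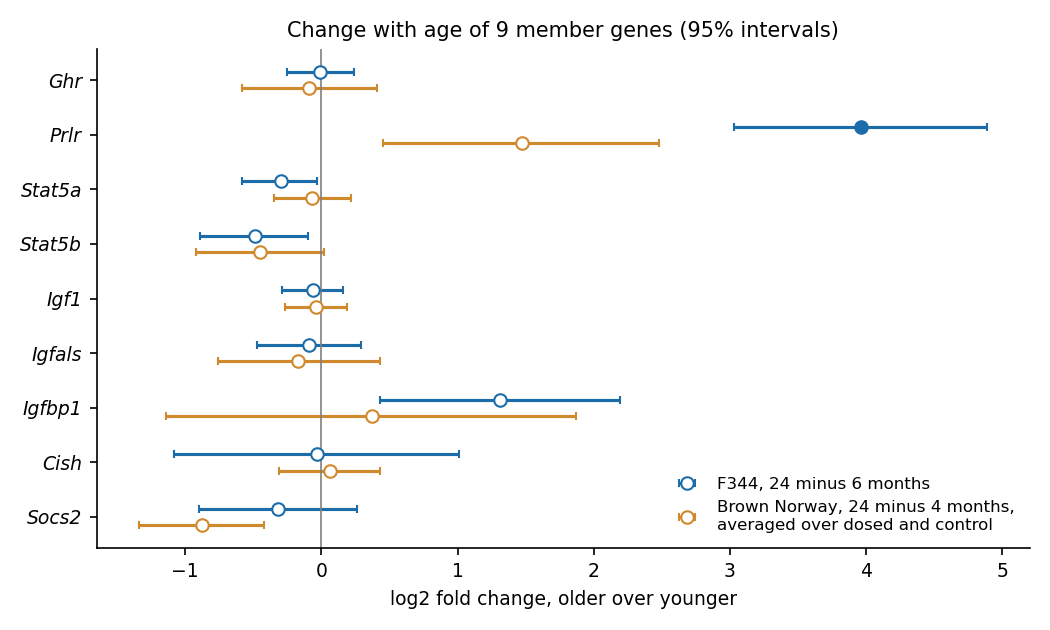
Log2 fold change with age of the 9 tested genes, with 95% intervals, for F344 rats of 24 against 6 months (blue) and Brown Norway rats of 24 against 4 months averaged over dosed and control rats (orange). Filled points passed the test, and the single filled point is Prlr in F344 at 3.96; Prlr was read from different probe sets in the strains.

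Set side by side, the 9 tested genes had a median log2 fold change of -0.06 between 24 and 6 months in F344 rats, where that of all genes was -0.01, and -0.07 between 24 and 4 months in Brown Norway rats, where that of all genes was -0.00. In F344 rats, 0 of the 9 genes passed between 11 and 6 months (limma), where 0% of all genes passed, and 0 had an unadjusted p under 0.05, against 3.88% of all genes. The count was also 0 between 24 and 18 months, where 1.76% of all genes passed, with 1 unadjusted (11.9% of all genes). It was 0 between 18 and 11 months, where 0.293% passed, with 2 unadjusted (11.1% of all genes). The 6 F344 comparisons share groups.

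No gene of the 9 passed in an age comparison of Brown Norway rats (limma). With dosed and control arms averaged, 2 genes, Prlr and Socs2, had an unadjusted p under 0.05 between 24 and 4 months, where 0.850% of all genes passed and 10.8% had such a p. Between 12 and 4 months it was 1, Socs2 (0% passing, 3.26% unadjusted), and between 24 and 12 months 1, Prlr (0.128% and 5.91%). In controls it was 1 between 24 and 4 months (0.245% and 11.6%), 1 between 12 and 4 months (0% and 3.90%) and 4 between 24 and 12 months (0.0233% and 14.6%). Those 4 were Prlr (1.64), Igf1 (-0.34), Igfals (-0.89) and Igfbp1 (2.36), and their controls of 24 months are the ones set against toluene. In dosed rats it was 2 between 24 and 4 months (0.268% and 5.51%), 1 between 12 and 4 months (0% and 2.46%) and 0 between 24 and 12 months (0.0932% and 3.25%). The arms share no rats with each other, and the averaged comparisons use the rats of both.

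For the 8 genes other than Prlr, the difference between the strains' effects of age had adjusted p-values of 0.652 to 0.98. The interval for Igf1 was -0.35 to 0.30 and that for Igfbp1 -0.80 to 2.69, so the data bound the first far more closely than the second.

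Toluene changed none of the 9 genes past the test at any age in Brown Norway rats. With limma, 0 passed at 4 months, where 0.0233% of all genes did, and 0 had an unadjusted p under 0.05, against 3.16% of all genes. At 12 months 0 passed (0.0349% of all genes) and 0 had such a p (4.61%). At 24 months 0 passed (0.0582%) and 3 of 9 had such a p, against 11.1% of all genes. Averaged over the ages 0 passed (0.0699%) and 0 had such a p (5.24%). The 3 genes at 24 months were Igf1, Ghr and Igfbp1, and are described here as values. The share of all genes whose dosed and control groups did not overlap is not given, so a lack of overlap is no result by itself.

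Igf1 at 24 months had 4224, 3955 and 4326 in dosed rats, against 2627, 3346 and 3195 in controls. All dosed rats lay above all controls. The means were 4168 ± 192 in dosed rats and 3056 ± 380 in controls (SD, n = 3 each), a log2 fold change of 0.45 (SE 0.15, 95% interval 0.13 to 0.78, adjusted p = 0.324, limma). The other Igf1 probe sets also had no overlap: 1382599_at read 658, 569 and 540 in dosed rats, against 281, 395 and 335 in controls. Their differences of 0.81 and 0.60 did not pass (adjusted p = 0.319 and 0.334). At 4 months the dosed rats had 3968, 3117 and 4069 and the controls 4007, 3399 and 3491. At 12 months the dosed rats had 3973, 4240 and 2832 and the controls 3756, 3841 and 3961. The groups of 4 and of 12 months overlapped, and the controls of 24 months were the lowest group.

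Ghr and Igfals had the same order at 24 months. Ghr was 2199, 1593 and 1927 in dosed rats, against 625, 1387 and 1569 in controls, with no overlap but with neighbours at 1593 and 1569. The difference was 0.77 (95% interval 0.07 to 1.47, adjusted p = 0.407) and 0.36 without replicate 1 of the controls (adjusted p = 0.854). Igfals was 642, 480 and 510 in dosed rats, against 213, 386 and 404 in controls, a difference of 0.75 (95% interval -0.09 to 1.59, adjusted p = 0.503). It was 0.45 without that same control.

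Igfbp1 lay the other way at 24 months. The dosed rats had 277, 140 and 624, against 1082, 4845 and 852 in controls. All dosed rats were below all controls, and 1 control stood far above the rest. The signal was 5.70-fold lower in dosed rats (log2 fold change -2.51, 95% interval -4.64 to -0.38, adjusted p = 0.375, limma). At 12 months the dosed rats had 488, 510 and 898, against 86.9, 430 and 879 in controls, and those groups overlapped.

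The difference between dosed and control rats was itself compared between ages. Between 24 and 12 months it shifted by 0.54 for Igf1, by 1.36 for Igfals and by -3.43 for Igfbp1, the 3 of 9 genes with an unadjusted p under 0.05. None passed (adjusted p = 0.384 for Igf1 and 0.397 for the other two), and 0.0349% of all genes passed that test. The share of all genes with such an unadjusted p is not given for it, so the count of 3 is no result by itself. Between 24 and 4 months 0.0116% and between 12 and 4 months 0% passed, with none of the 9 genes, and 0 of the 9 had an unadjusted p under 0.05 in either. These values share the controls of 24 months with the comparisons before them. At 24 months the macrophage markers summed to 1123 to 1928 in dosed rats and 1884 to 3599 in controls. Those of T and B cells summed to 350 to 505 in dosed rats and 650 to 964 in controls. Of the 6 T and B cell markers, Cd3e, Cd8a and Cd79b were at the floor on every array of both groups, so that sum rests on the others. The part of those cells in the differences at 24 months was not tested.

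**Figure D4:**
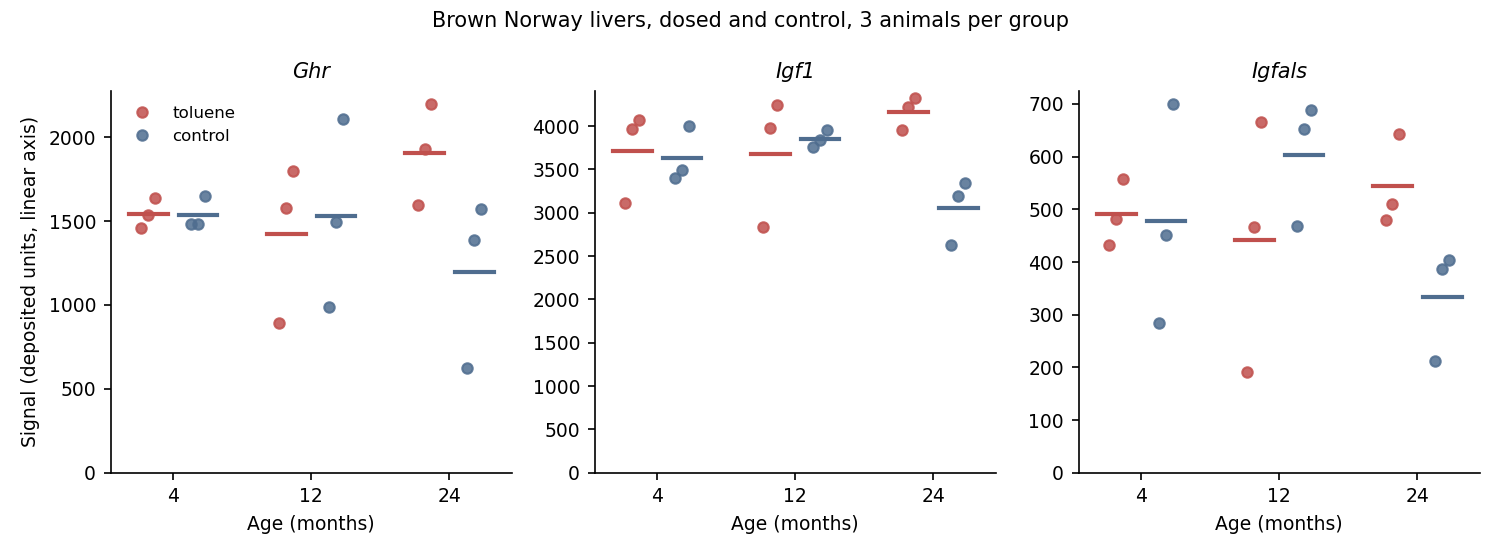
Signals of Ghr, Igf1 and Igfals (linear axes from 0) in each Brown Norway rat at 4, 12 and 24 months, with toluene-dosed rats left of controls (3 each) and bars at the means. At 24 months dosed rats lie above controls for all 3 genes, while at 4 and 12 months they overlap. None of the 3 differences at 24 months passed the test.

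The wider pathway was read from lists of 91 genes besides the members, of which 71 were tested in F344 and 69 in Brown Norway rats. Between 24 and 6 months in F344 rats 10 passed as higher and 9 as lower, with a median of 0.05, where 7.40% of all genes passed and 4.43% passed as higher. The lists were chosen with earlier results of these data known. Most of these were outside the signalling steps. Of 5 tested IGF ligands and binding proteins, 8 inhibitors and phosphatases and 4 nuclear receptors, 0 passed with limma. In each list 1 gene had an unadjusted p under 0.05, where 20.4% of all genes had one, so these counts are no result by themselves. Among these genes was the IGF-binding protein Igfbp2, with 96.9 ± 17.2 at 24 months and 37.1 ± 34.2 at 6 months (log2 fold change 1.22, adjusted p = 0.0743).

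Among receptors, kinases and STATs, 4 genes passed between 24 and 6 months in F344 rats. Il6r, the interleukin-6 receptor and 1 of 7 receptors tested, was lower, with 84.6 ± 3.35 at 24 months and 120 ± 20.9 at 6 months (log2 fold change -0.49, adjusted p = 0.0458). Of 11 kinases and adaptors, Akt1, a kinase downstream of insulin and IGF receptors, was 325 ± 28.9 at 24 months and 202 ± 33.0 at 6 months (0.69, adjusted p = 0.0058). Jak3, a kinase of lymphoid cells, was 42.7 ± 5.70 at 24 months and at the floor on all 4 arrays of 6 months, at least 1.33-fold higher (adjusted p = 0.0274). Of 3 other STATs, Stat3, which carries interleukin-6 signals in liver, was 687 ± 92.6 at 24 months and 332 ± 132 at 6 months (1.13, adjusted p = 0.00748). Stat3 was already higher at 18 months, with 648 ± 36.3 (1.05, adjusted p = 0.0433), as was Prlr.

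Of 9 genes with a sex pattern that growth hormone sets, 4 rose and 4 fell between 24 and 6 months in F344 rats, with a median of -1.07. The female-specific P450 Cyp2c12 had 6437 ± 783 at 24 months and 332 ± 79.1 at 6 months (4.30, adjusted p = 2.06e-04), and the male-specific P450 Cyp2c11 had 316 ± 191 at 24 months and 5855 ± 299 at 6 months (-4.44, adjusted p = 1.85e-07). Between 18 and 6 months 0 of the 9 passed with limma, where 1.08% of all genes passed. An unadjusted p under 0.05 was found for 1 of them, against 11.8% of all genes. The differences were -0.25 for Cyp2c12 (adjusted p = 0.924) and -0.19 for Cyp2c11 (adjusted p = 0.892). Prlr had 2.42 in that comparison. The list's ninth gene Bcl6, a repressor that growth hormone controls, had 77.8 ± 50.5 at 24 months and 181 ± 140 at 6 months (adjusted p = 0.375).

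**Figure D5:**
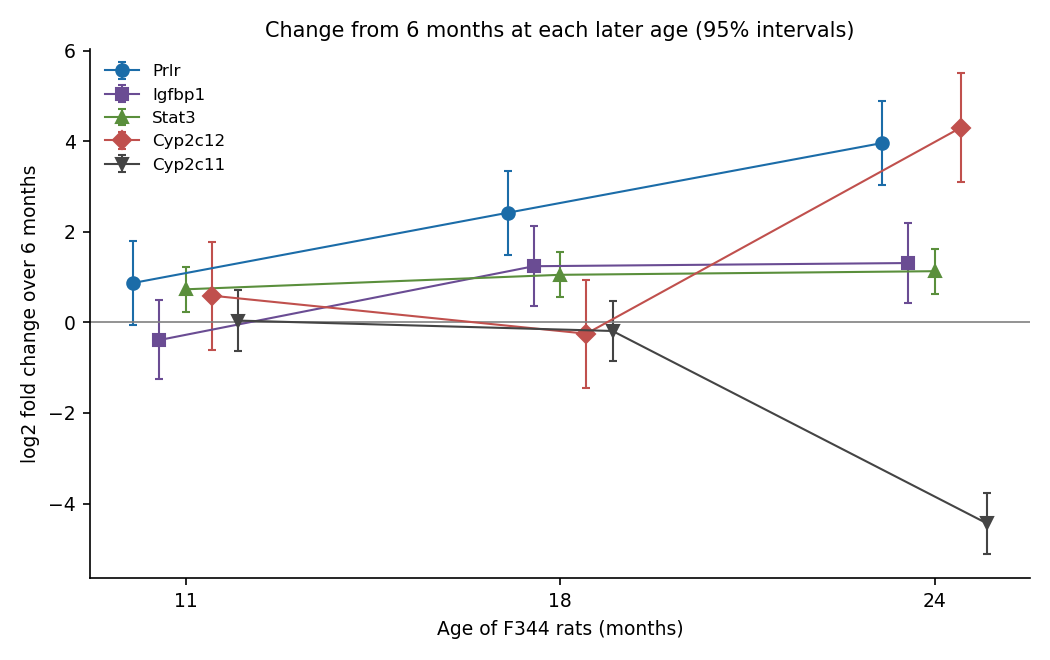
Log2 change from 6 months in F344 rats at 11, 18 and 24 months for Prlr, Igfbp1, Stat3, Cyp2c12 and Cyp2c11, with 95% intervals (4 rats per age). Prlr and Stat3 are higher at 18 months, where Cyp2c12 is at -0.25 and Cyp2c11 at -0.19, and at 24 months Cyp2c12 is at 4.30 and Cyp2c11 at -4.44.

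Lists on feeding state, time of day and inflammation are given because Igfbp1 is known to answer to them. Their values are for 24 against 6 months, where Igfbp1 itself did not pass. The Igfbp1 difference that passed was between 24 and 11 months. Of 11 fasting and insulin genes tested in F344 rats at 24 against 6 months, 2 were lower: Pck1, the gluconeogenic enzyme, with 3175 ± 921 at 24 and 4968 ± 261 at 6 months (-0.70, adjusted p = 0.0191), and Cpt1a, which admits fatty acids to mitochondria, with 718 ± 358 at 24 and 1846 ± 808 at 6 months (-1.35, adjusted p = 0.039). Of 6 clock genes the repressors Nr1d1 (35.6 ± 17.2 at 24 and 145 ± 40.1 at 6 months, -1.89, adjusted p = 4.28e-04) and Nr1d2 (142 ± 70.5 at 24 and 321 ± 69.4 at 6 months, -1.25, adjusted p = 0.00415) were lower. Of 7 acute-phase genes 3 were higher: S100a9 (230 ± 66.6 at 24 and 55.9 ± 7.56 at 6 months, 2.00), Lbp (1282 ± 398 at 24 and 471 ± 96.4 at 6 months, 1.42) and S100a8. S100a9 and S100a8 are also the neutrophil markers given above, and only Lbp is not. S100a8 was at the floor on every array of 6 months, so its difference is on floored values. The part of the genes of these lists in the Igfbp1 values was not tested.

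Of the 69 pathway genes tested in Brown Norway rats, 1 passed between 24 and 4 months with averaged arms, where 0.850% of all genes passed. It was the leptin receptor Lepr, with 27.3 ± 11.0 at 24 months and 80.1 ± 34.3 at 4 months (SD, n = 6 each, log2 fold change -1.14, adjusted p = 0.0452, limma). All 3 controls of 24 months were at the floor, so the difference is on floored values. Of 7 sex-patterned genes tested, 0 passed, with a median of -0.47. An unadjusted p under 0.05 was found for 2 of them, against 10.8% of all genes. Between dosed and control rats of 24 months 0 of 69 passed with limma, and 11 had an unadjusted p under 0.05, where 11.1% of all genes had one.

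Over the 16 F344 arrays, the genes whose log2 signals were most like Prlr were Plin3, a lipid droplet coat protein (Pearson r 0.95), the keratin Krt18 (0.92) and the inflammatory protease Casp1 (0.92). Each was higher at 24 than at 6 months, by 1.52, 0.84 and 1.07 on the log2 scale. Those most like Igfbp1 were Tnfaip3, an inhibitor of NF-kB signalling (0.91), and the plasma proteins Cp (0.90) and C9 (0.90). Of these, Tnfaip3 passed at 24 against 6 months (1.71, adjusted p = 0.0281), while Cp (0.19) and C9 (0.15) did not. The points share their 4 age groups and their arrays, so these likenesses are descriptions. The genes were picked on these same arrays for likeness to members that differed with age. Their own differences with age are therefore no separate support.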

How the data were processed

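The deposited values are linear probe set intensities of Affymetrix Rat 230 2.0 arrays, 1 per animal. The submitters' processing notes name MAS5 and RMA, with no version, role or order. The labels' protocols give TriReagent extraction with a column cleanup.

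The table has 24946 probe sets, and 17589, array controls among them, have 1 gene symbol, 393 several and 6964 none in the platform annotation, with symbols updated through the Entrez identifier. A gene was read from its probe set of highest mean log2 signal in the strain. Signals under 32 were set to 32 and log2 was taken. Genes above 32 on at least 4 F344 or 3 Brown Norway arrays were tested in R 4.3.3 (limma 3.58.1). The model gave each group of a strain its mean, variances were moderated by empirical Bayes, and the adjustment ran over all genes tested in the strain. Adjusted p-values of a gene's other probe sets come from a fit of every probe set with 1 gene symbol, adjusted over the probe sets tested. P-values rest on separate animals. Effects of age in the strains were compared from the separate estimates and their standard errors. The code was tested on simulated data. Per-sample columns not used numbered 0.

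All 10 members are named, with up to 4 genes of smallest p per list among those that passed and the 3 most alike genes of members whose F test passed. The members and lists were chosen with earlier results of these data known, among them the rise of Prlr with age in F344 rats. Alternatives were other floors, no filter, other probe set rules, other scalings, array weights, the compared groups alone, the GAPDH ratio and leaving out each array in turn. Replicate numbers were given in accession order and pair no samples.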

Additional observations from a re-analysis of the deposited data

Results flagged for a closer look

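In 36 sets of 4 F344 rats, each a gene at an age, the highest or the lowest rat was checked against the other 3. A rat stood apart in 3 of them, and chance alone marks about 1 set in 20. All 3 sets were of rats of 24 months. Prlr was 1210 in replicate 4, above 761 to 817 in the others, a gap of 0.874 of the group's range. Replicate 3 stood apart in both other sets. Its Igf1 was 4192, below 5219 to 5268 (0.954 of the range), and its Igfals was 887, above 594 to 629 (0.880 of the range).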

How the results depend on the processing

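No paired analysis was possible because replicate numbers follow accession order and no label ties animals of different groups. No value changed direction under any alternative among the members with an unadjusted p under 0.05. Prlr passed at 24 against 6 months in F344 rats in 21 of 21 alternatives, at log2 fold changes of 2.79 to 5.05, and at 24 against 11 months in 21 of 21. The count of members that passed matched within 1.5 times in 456 of the alternative counts and moved in 42. In most comparisons the main count was 0, and a count that stayed at 0 is among the matches. The 456 therefore do not measure how firm the calls were.

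Between 24 and 6 months the count of members that passed was 1. It became 3 with array quality weights, 2 with the compared groups alone and 2 without the 5 arrays of high GAPDH ratio. Between 18 and 6 months it was 1, with 0 when low signals were not filtered and 0 to 1 when single rats were left out. Between 24 and 18 months it was 0, with 1 (Prlr) at a floor 4 times as high, with probe sets averaged per gene, array weights, the linear choice of probe set or the compared groups alone. Between 18 and 11 months it was 0, with 1 (Prlr) under array weights and 0 to 1 without single rats: Igfbp1 passed without replicate 1 of 18 months and Prlr without replicate 1 of 11 months. Between 24 and 11 months it was 2, with 1 (Prlr) at a floor of 8 or 4 times as high, without the filter or with the GAPDH covariate, and 1 to 2 without single rats. The F test over ages gave 2, with 1 (Prlr) under those 4 settings and with the 5 arrays of high GAPDH ratio left out, and 1 to 3 without single rats. In Brown Norway rats, array weights gave 1 (Socs2) in dosed rats of 24 against 4 months, 2 (Prlr and Socs2) with averaged arms and 1 (Socs2) at 12 against 4 months, where the main counts were 0. Leaving out single rats gave 0 to 1 in both averaged comparisons, with 1 (Socs2) without replicate 1 of the dosed rats of 4 months. These Socs2 calls do not decide a difference with age, because Socs2 met the filter only through the rats of 4 months. The difference between strains gave 0, with 1 (Prlr) at a floor 4 times as high, with probe sets averaged and with the linear choice of probe set, and 0 to 1 without single rats, 1 without replicate 3 of the controls of 24 months. The cause of these shifts was not tested. The linear choice of probe set, and every alternative for the F test, the strain difference and the age by toluene differences, were chosen after seeing the data.

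Counts over all genes moved more. Array weights raised them to 1153 from 681 between 24 and 6 months, to 427 from 99 between 18 and 6 months and to 267 from 73 between 24 and 4 months in Brown Norway rats. Leaving out 1 rat lowered them to 389 and 22 in F344 and to 25 in Brown Norway rats. Over all alternatives the range was 65 to 629 around 162 between 24 and 18 months, 0 to 256 around 27 between 18 and 11 months, 181 to 1021 around 453 between 24 and 11 months, 288 to 1368 around 553 for the F test and 14 to 125 around 60 for the strain difference. In Brown Norway rats of 24 against 4 months it was 0 to 134 around 21 in controls and 2 to 159 around 23 in dosed rats, and for toluene at 24 months 0 to 48 around 5. Signals near the floor limit what can be measured for Jak2, Socs2, Cish and Stat5b.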
